A study of Rattus norvegicus with 18 samples.

Results

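Mbp, Pmp22, Prx, Ncmap, Sox10, Erbb3, Cnp and Mag, genes of Schwann cells and of the myelin they make, were followed through 18 bulk RNA libraries of rat tibialis anterior, a shin muscle rich in fast fibres. The 8 genes were found by symbol among 30560 entries of the deposited count table, of which 23398 carried a symbol. The groups of 9 months comprised wild-type (WT) rats with 3 libraries, DMD rats, named for Duchenne muscular dystrophy, with 3, and p16-null DMD rats with 6, so the lesion behind the DMD label is shared by the last 2 groups. WT muscle was also taken at 3 and at 18 months, with 3 libraries each. The labels give neither the strain, the sex nor the edit behind the DMD and p16-null names. Nor do they say whether each library came from its own animal, so the p-values rest on the spread of these libraries alone, which may be partly technical.

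Schwann cells are the glia of peripheral nerve. A myelinating Schwann cell wraps a single axon in a compact sheath, while others ensheathe small axons or cap the motor nerve terminal. Neuregulin on the axon signals through the receptor pair ErbB2 and ErbB3, and the transcription factor Sox10 keeps the lineage and, together with Egr2, turns on the myelin genes. In muscle such cells sit in the intramuscular nerve branches and at the neuromuscular junction. Several of the 8 genes are also known outside Schwann cells: Pmp22 in fibroblasts and other growing cells, Cnp and Mbp in oligodendrocytes and at low levels elsewhere. In a bulk sample, a change in the number of such cells and a change in the RNA of each cell cannot be told apart.

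Stretches of sequence in front of the transcription start were at hand for Pmp22, Prx, Ncmap, Cnp and Mag, 5 of the 8 genes, in RefSeq's table for the rat build GRCr8. The 3 printed here, each 250 bases long and written 5′ to 3′ on the gene's own strand, belong to both of these genes that rose in dystrophic muscle and to Prx, which did not pass the test. Capitals mark matches, on either strand, to ACAAAG or ACAATG (SOX cores), GCGTGGGCG or GCGGGGGCG (EGR cores) and GGAATG (TEAD core).
Pmp22 (chr10:48294682-48294931, plus strand): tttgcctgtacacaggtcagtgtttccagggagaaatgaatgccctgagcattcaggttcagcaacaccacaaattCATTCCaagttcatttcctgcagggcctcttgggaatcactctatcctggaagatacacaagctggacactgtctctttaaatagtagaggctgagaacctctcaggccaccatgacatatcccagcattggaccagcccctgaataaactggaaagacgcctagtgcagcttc
Cnp (chr10:86011254-86011503, plus strand): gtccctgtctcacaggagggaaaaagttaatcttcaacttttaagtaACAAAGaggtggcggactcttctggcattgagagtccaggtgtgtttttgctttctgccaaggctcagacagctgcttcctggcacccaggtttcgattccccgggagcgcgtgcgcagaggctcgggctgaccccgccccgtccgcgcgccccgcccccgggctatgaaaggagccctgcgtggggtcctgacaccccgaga
Prx (chr1:91914171-91914420, plus strand): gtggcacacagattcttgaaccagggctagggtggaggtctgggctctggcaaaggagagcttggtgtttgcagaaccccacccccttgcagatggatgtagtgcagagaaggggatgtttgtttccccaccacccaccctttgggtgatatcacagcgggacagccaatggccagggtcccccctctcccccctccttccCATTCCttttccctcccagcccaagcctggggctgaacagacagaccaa
Pmp22 and Prx each held 1 match to GGAATG, starting 174 and 49 bases before the start site, and Cnp held 1 match to ACAAAG, 203 bases before it. Mag also held 1 match to ACAAAG, at 152 bases, and Ncmap held none of these motifs. Among 33469 promoters of the same length, 12.1% held GGAATG, 16.3% ACAAAG, 11.1% ACAATG, 0.478% GCGTGGGCG and 2.45% GCGGGGGCG, and none of the motifs overlaps another in the sequences shown. A match is a string of letters and says nothing of binding.

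Estimated counts per library ran from 9.61 M to 21.99 M. Dmd, the dystrophin gene, ranged from 114 to 167 CPM (counts scaled to a common library size, by TMM over all 18 libraries) in WT at 9 months. It ranged from 31.4 to 44.3 CPM in the DMD libraries and between 30.9 and 54.1 CPM in the p16-null DMD libraries, a fall of 1.92 ± 0.22 (SE) in DMD on the log2 scale (edgeR adjusted p = 9.6e-06). The fall was smaller in log2 TPM, a length-scaled unit, with a pseudocount of 1: -0.65 in DMD and -0.62 in p16-null DMD. Cdkn2a, whose products include p16, read 10.7 to 19.4 CPM in the DMD libraries against 10.1 to 15.3 CPM in those of p16-null DMD. Gene-level counts pool its transcripts, so this does not check the p16-null label. Of the other cell types, fibroblast genes summed to 4140 to 4290 CPM in WT at 9 months against 12200 to 17700 in DMD libraries and 13000 to 21900 in those of p16-null DMD, and 10 of 10 rose in each comparison with WT. Macrophage genes went from 403 to 453 CPM up to 2360 to 3660 and 1570 to 4570, again 10 of 10, and the 7 muscle fibre genes measured all fell, from 134000 to 150000 CPM down to 36600 to 56400 and 30400 to 65200. Of all 14801 tested genes, 26.4% rose in DMD and 27.5% in p16-null DMD (edgeR adjusted p under 0.05), and 21.8% and 22.7% fell. Scaled by library totals in place of TMM, 6 of the 7 muscle fibre genes fell in each comparison with WT, and 5 of 7 in log2 TPM. Of all 14801 tested genes, 1240 and 1251 fell with library totals, and 1044 and 983 in log2 TPM with a pseudocount of 1. The lymphocyte genes went from 0.54 to 1.22 CPM in WT at 9 months up to 20.7 to 30.6 in DMD libraries and 9.36 to 20 in those of p16-null DMD. The 4 that were tested were higher in each comparison with WT. Of the 7 measured, 5 were at 0 in each WT library of 9 months. A gene at 0 in WT can pass the low-count filter only through the dystrophic libraries, so this count is partly set by the filter. How far these shifts account for the members' values was not tested. Of the 6 genes of melanocytes, which also use Sox10, 3 to 4 were at 0 in each library, with Dct, Tyr and Tyrp1 at 0 in all 18. The 6 summed to 21.2 to 33.2 CPM over the 5 groups, most of it from Mitf (20.6 to 31.9 CPM), Pmel reached 1.83 CPM at most and Mlana 0.455 CPM, and neither of the 2 that were tested passed in DMD or p16-null DMD. With library totals and in log2 TPM 1 of these 2 was higher in each comparison. Of all 14801 tested genes, 7691 and 8071 rose with library totals, and 8058 and 8818 in log2 TPM with a pseudocount of 1.

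The level of each gene was compared per length first, in TPM, a transcript's length-scaled share of the library. In WT muscle at 9 months Pmp22, a compact myelin membrane protein, stood highest at 46.8 ± 8.88 TPM (SD, n = 3), followed by Cnp, an enzyme of non-compact myelin, at 14.4 ± 2.22 and Mbp, the protein that binds the inner faces of the sheath together, at 11.1 ± 1.42. Prx, which makes periaxin and anchors the sheath to the basal lamina, stood at 4.93 ± 1.87 TPM. The remaining members, Ncmap, Sox10, Erbb3 and Mag, had means between 0.237 and 1.65 TPM. In DMD muscle Pmp22 reached 160 ± 36.4 TPM, Cnp 49.5 ± 5.87 and Erbb3 5.92 ± 2.94 TPM, the last up from 0.873 ± 0.211 in WT. The means of Mbp and Prx were higher in this unit too, at 22 ± 19.6 and 8.21 ± 4.99 TPM. In log2 TPM with a pseudocount of 1 the median difference of all tested genes was itself 0.645 in DMD against WT.

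**Figure D1:**
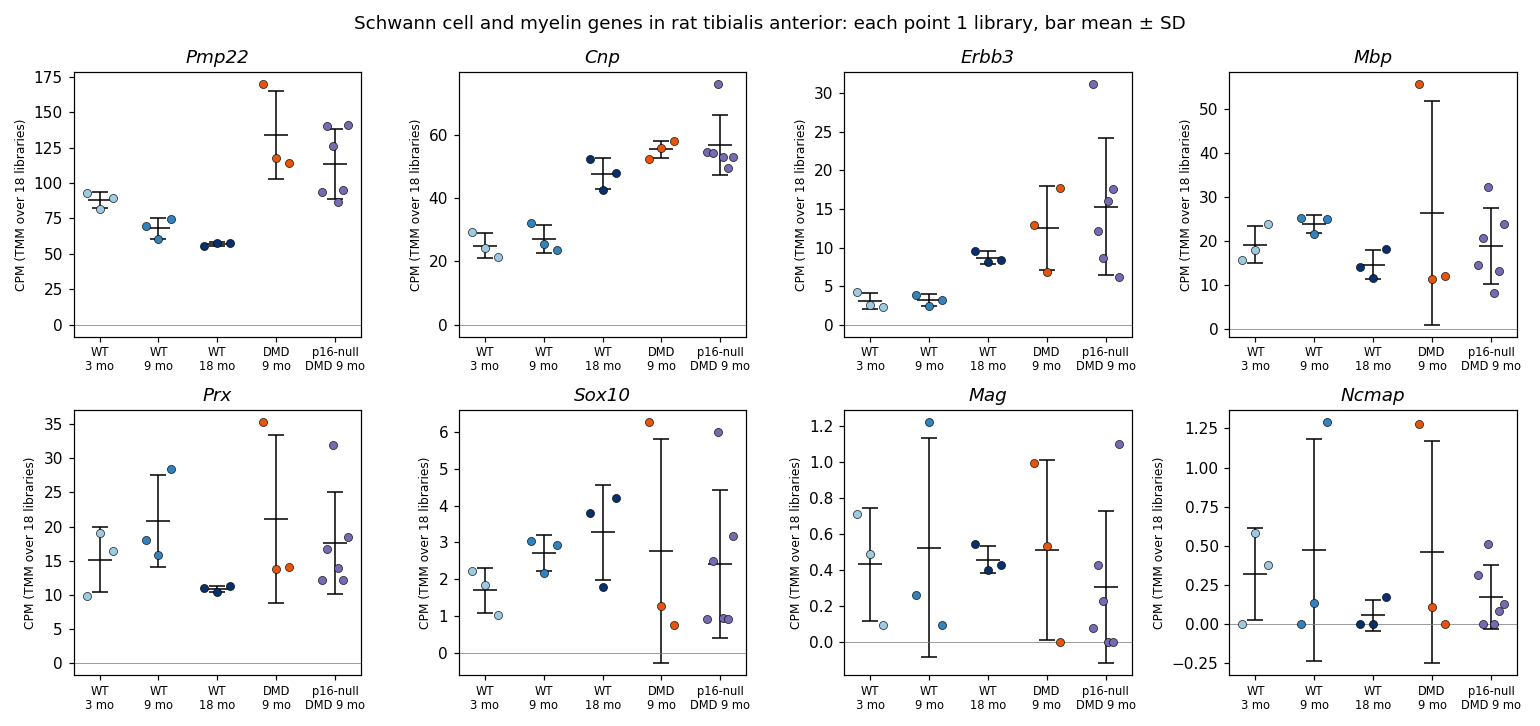
CPM of each of the 8 genes in the 18 libraries, 1 panel per gene, with libraries as points in 5 groups (WT at 3, 9 and 18 months, DMD, p16-null DMD) and a bar at the group mean. Pmp22, Cnp and Erbb3 lie above all 9-month WT libraries in every DMD and p16-null DMD library, whereas Mbp, Prx and Sox10 overlap between these groups, with DMD replicate 1 highest among DMD libraries.

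Which of these genes differ in dystrophic muscle was asked by setting DMD against WT libraries of 9 months. Pmp22, Cnp and Erbb3 rose in DMD, while Mbp, Prx, Sox10 and Mag did not pass the test, and Ncmap had too few counts to be tested. The test was edgeR's quasi-likelihood test over 14801 genes with Benjamini-Hochberg adjustment, and an adjusted p under 0.05 counts as passing. Of 7 members tested 3 rose and none fell, against 26.4% of all tested genes that rose and 21.8% that fell. Their median log2 fold change was 0.15, against 0.11 over all tested genes.

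Pmp22 stood at 69.7, 60.2 and 74.6 CPM in the WT libraries and at 170, 118 and 114 CPM in the DMD libraries. All 3 DMD libraries lay above all WT libraries, and DMD replicate 1 was the highest. Such a gap upward without overlap was found in 3 of the 7 tested members and in 30.7% of all tested genes. The log2 fold change was 0.98 ± 0.23 (SE, 95% interval 0.50 to 1.47, edgeR adjusted p = 0.0025). Cnp, the enzyme 2′,3′-cyclic nucleotide 3′-phosphodiesterase, read 32.1, 25.5 and 23.5 CPM in WT and 52.5, 55.8 and 58 CPM in DMD. Its DMD libraries were the most alike of any tested member in that group, with a coefficient of variation of 5.05%, and they did not overlap with WT (log2 fold change 1.04 ± 0.18, interval 0.66 to 1.42, edgeR adjusted p = 0.00025).

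Erbb3, the kinase-impaired partner in the neuregulin receptor, read 3.91, 2.43 and 3.22 CPM in WT and 12.9, 6.88 and 17.7 CPM in DMD. The lowest DMD library was above the highest WT library, and the 3 DMD libraries spread 2.57-fold among themselves. Its log2 fold change was 1.96 ± 0.51 (interval 0.87 to 3.04, edgeR adjusted p = 0.0054). Without DMD replicate 1 the log2 fold change of Pmp22 was 0.76, and without DMD replicate 3 that of Erbb3 was 1.63, both still past the threshold.

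Mbp read 25.3, 21.6 and 24.9 CPM in WT and 55.8, 11.3 and 12 CPM in DMD. DMD replicate 1 was therefore above every WT library while replicates 2 and 3 were below all of them. Prx behaved in the same way, with 18.1, 15.9 and 28.5 CPM in WT and 35.3, 13.8 and 14.1 CPM in DMD. Sox10 read 3.04, 2.16 and 2.94 CPM in WT and 6.26, 1.28 and 0.764 CPM in DMD, again with replicate 1 above and the others below WT.

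The fitted log2 fold changes of these genes in DMD were near 0 with wide intervals: 0.15 for Mbp (-1.02 to 1.32), 0.02 for Prx (-0.86 to 0.90) and 0.02 for Sox10 (-1.69 to 1.74), with edgeR adjusted p = 0.84, 0.97 and 0.98. DMD replicate 1 set their direction. Without it the log2 fold changes were -1.04 for Mbp, -0.58 for Prx and -1.40 for Sox10 (edgeR adjusted p = 0.066, 0.24 and 0.18). Mag, an adhesion protein of the sheath's inner layer, had 3, 9 and 1 counts in WT and 14, 10 and 0 in DMD (log2 fold change 0.07, interval -2.85 to 2.99, edgeR adjusted p = 0.97; -0.80 without DMD replicate 1). Ncmap, a non-compact myelin protein, had 0, 1 and 14 counts in WT and 18, 2 and 0 in DMD, so most of its counts came from WT replicate 3 and DMD replicate 1.

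In p16-null DMD muscle against WT the same 3 members passed: Pmp22, Cnp and Erbb3 were higher, none was lower, and the other 4 tested did not pass. Over all 14801 tested genes, 27.5% rose and 22.7% fell. These comparisons use the same WT libraries as the ones above and are not independent of them. The members' median log2 fold change was -0.15, against 0.11 over all genes.

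Pmp22 ranged from 86.7 to 141 CPM over the 6 p16-null DMD libraries, with a median of 111. Cnp ranged from 49.6 to 76.1 CPM with a median of 53.7, and Erbb3 from 6.24 to 31.2 CPM with a median of 14.1. None of the 3 overlapped with WT, where 23.8% of all tested genes were higher without overlap, and Erbb3 spread 5.01-fold between its lowest and highest library and Cnp only 1.53-fold. Log2 fold changes were 0.75 ± 0.20 for Pmp22, 1.08 ± 0.16 for Cnp and 2.24 ± 0.47 for Erbb3 (SE; edgeR adjusted p = 0.0064, 6.6e-05 and 0.0012).

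Mbp ranged from 8.07 to 32.3 CPM, Prx from 12.1 to 31.9 and Sox10 from 0.914 to 5.99 over these 6 libraries, with medians of 17.6, 15.3 and 1.73 CPM. Their ranges reached above and below those of WT, and p16-null DMD replicate 3 was the highest library for all 3 genes. The log2 fold changes against WT were -0.34 for Mbp (-1.35 to 0.67), -0.24 for Prx (-1.0 to 0.52) and -0.15 for Sox10 (-1.64 to 1.34), with edgeR adjusted p = 0.58, 0.61 and 0.88. With libraries scaled by their totals instead, these 3 turned positive, at 0.29, 0.37 and 0.49, still without passing. Mag had 0 to 17 counts per library (log2 fold change -0.63, interval -3.31 to 2.04, edgeR adjusted p = 0.70) and Ncmap 0 to 9 counts.

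Scaling bears on all these values. With library totals in place of TMM, the median log2 fold change of all genes moved from 0.11 to 0.76 in DMD and from 0.11 to 0.72 in p16-null DMD, and the share of passing genes that were higher went from 54.8% to 86.1% and from 54.8% to 86.6%. Under that scaling Pmp22, Cnp and Erbb3 stood at 1.62, 1.69 and 2.62 in DMD, so each was also above the shifted median. All 3 calls held in both comparisons under each of 23 alternative settings.

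**Figure D2:**
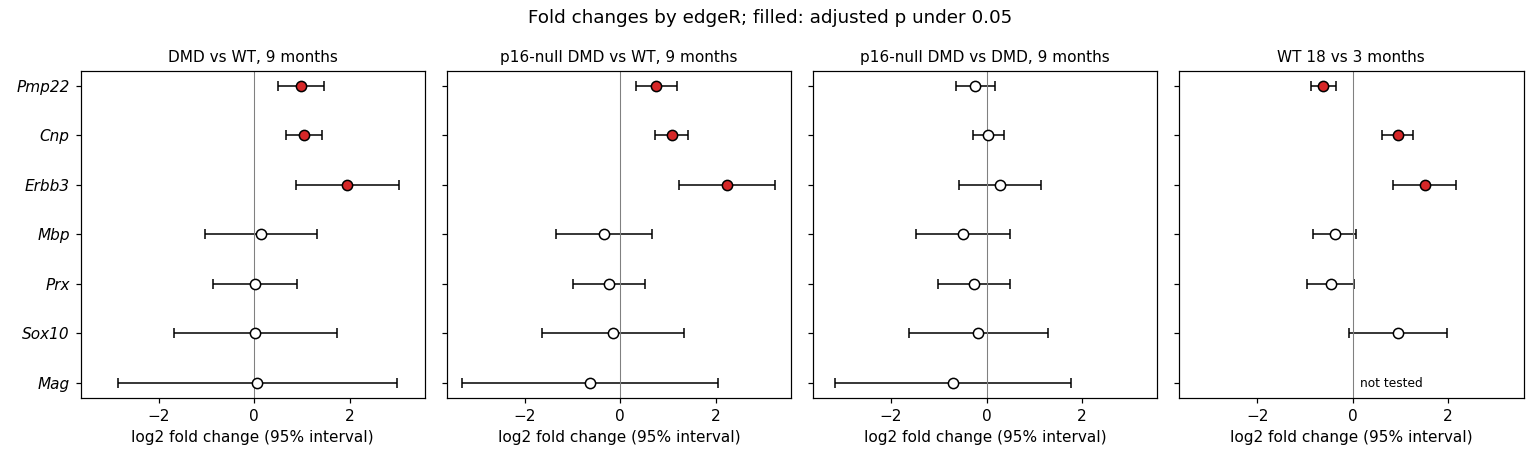
Log2 fold changes of the tested members with 95% intervals from edgeR, 1 panel per comparison (DMD vs WT, p16-null DMD vs WT, p16-null DMD vs DMD, WT at 18 vs 3 months), with filled points for an adjusted p under 0.05. Pmp22, Cnp and Erbb3 lie right of 0 in both comparisons with WT at 9 months, no member passes between p16-null DMD and DMD, and with age Cnp and Erbb3 lie right and Pmp22 left of 0.

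Between p16-null DMD and DMD muscle no member passed. Only 1 gene of 14801 did (0.00676%, lower in p16-null DMD), while 764 had an unadjusted p under 0.05 and DESeq2 called 15. The intervals were narrow for Cnp (log2 fold change 0.04, -0.28 to 0.36) and Pmp22 (-0.23, -0.65 to 0.18) and wider for Prx (-0.26, -1.01 to 0.49), Mbp (-0.49, -1.48 to 0.50) and Erbb3 (0.28, -0.58 to 1.14). For Sox10 (-0.17, -1.63 to 1.28) and Mag (-0.70, -3.17 to 1.76) they left room for severalfold differences in either direction. The edgeR adjusted p lay between 0.96 and 0.99. Without DMD replicate 1 the log2 fold changes of Mbp, Prx and Sox10 became 0.70, 0.35 and 1.26, again without passing, and 85 genes passed.

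In WT muscle the comparison of 18 with 3 months asked what differs with age. Cnp and Erbb3 were higher at 18 months, Pmp22 was lower, and Mbp, Prx and Sox10 did not pass. Mag and Ncmap had too few counts to be tested. Of 13487 genes tested, 9.31% rose and 10.1% fell, with a median log2 fold change of 0.00, and the median of the 6 members tested was 0.28.

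Cnp read 29.2, 24.2 and 21.5 CPM at 3 months and 52.4, 42.7 and 48.1 CPM at 18 months (log2 fold change 0.94 ± 0.15, edgeR adjusted p = 0.00057). Erbb3 read 4.26, 2.53 and 2.36 CPM at 3 months and 9.60, 8.08 and 8.42 CPM at 18 months (1.51 ± 0.31, edgeR adjusted p = 0.0029). Neither gene overlapped between the ages, and 17.7% of all tested genes were higher at 18 months without overlap. Pmp22 read 92.8, 81.5 and 89.3 CPM at 3 months and 55.4, 57.4 and 57.9 CPM at 18 months, also without overlap (18.4% of all tested genes were lower in this way), and fell by 0.62 on the log2 scale (SE 0.12, edgeR adjusted p = 0.0022). The fall depended on the unit: in log2 TPM with a pseudocount of 1 it was -0.30 (limma adjusted p = 0.11).

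Sox10 read 2.22, 1.85 and 1.04 CPM at 3 months and 3.8, 1.80 and 4.21 CPM at 18 months, with overlapping ranges (log2 fold change 0.94 ± 0.48, edgeR adjusted p = 0.20). Mbp read 15.6, 17.9 and 23.8 CPM against 14.1, 11.5 and 18.1 CPM (-0.38 ± 0.21, edgeR adjusted p = 0.24). Prx read 9.85, 19.1 and 16.4 CPM against 11.0, 10.4 and 11.3 CPM (-0.46 ± 0.23, edgeR adjusted p = 0.19). The low value of Prx in WT 3-month replicate 1 set that outcome, and without this library the log2 fold change was -0.70 (edgeR adjusted p = 0.026). Mag had 1 to 8 counts per library at 3 months and 4 to 6 at 18 months, and Ncmap 0 to 6 and 0 to 2. Here too scaling by library totals moved the median of all genes, to 0.24, and the share of passing genes that were higher from 47.9% to 80%. Macrophage genes summed to 375 to 576 CPM at 3 months and 660 to 967 at 18 months, with 9 of 10 higher. Fibroblast genes summed to 5560 to 11300 CPM at 3 months and 4090 to 4700 at 18 months, with 2 of 10 higher and 4 lower (3 and 3 when scaled by library totals), and 6 of 7 muscle fibre genes were lower (4 of 7 when scaled by library totals). Of all 13487 tested genes 9.31% rose and 10.1% fell with age, and with library totals 2609 rose and 652 fell. The part of these cell types in the members' changes was not tested.

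Across the 5 groups Pmp22 was ordered DMD (134 ± 31.4 CPM, SD), p16-null DMD (114 ± 24.7), WT at 3 months (87.9 ± 5.83), 9 months (68.2 ± 7.32) and 18 months (56.9 ± 1.31). Only the WT groups were separated from their neighbours: 3 from 9 months and 9 from 18 months. Erbb3 was ordered p16-null DMD (15.3 ± 8.90), DMD (12.5 ± 5.43), WT at 18 months (8.70 ± 0.795), 9 months (3.19 ± 0.741) and 3 months (3.05 ± 1.05), and only WT at 18 and 9 months did not overlap. Cnp followed the same order as Erbb3, at 56.8 ± 9.64, 55.4 ± 2.80, 47.7 ± 4.86, 27.0 ± 4.47 and 25.0 ± 3.92 CPM. For Cnp, WT at 18 months overlapped neither DMD above it nor WT at 9 months below it. For Mbp, Prx, Sox10, Mag and Ncmap every pair of neighbours in the order overlapped. WT at 9 months was not tested against the other ages.

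Ncmap was listed at 0 in 7 of 18 libraries and Mag in 3. At the depth of these libraries a count of 0 allows levels of up to 0.131 to 0.299 CPM for Ncmap and 0.131 to 0.249 CPM for Mag, taking 3 counts as the limit, which covers counting error only. Their group means were 0.0573 to 0.474 CPM for Ncmap and 0.307 to 0.523 CPM for Mag.

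The large spread of Mbp, Prx and Sox10 between libraries of a dystrophic group was shared. In WT at 3 months the order differed, with Sox10 at 2.22, 1.85 and 1.04 CPM, Mbp at 15.6, 17.9 and 23.8 and Prx at 9.85, 19.1 and 16.4. Sox10 differed 8.19-fold between the lowest and highest DMD library and 6.56-fold among p16-null DMD, Mbp 4.93-fold and 4.0-fold, and Prx 2.55-fold and 2.64-fold. To describe what varied together, each library's log2 CPM was taken as its deviation from its group mean over the 18 libraries, and labels were permuted within groups, 100000 times, for 10 relations. Sox10 and Mbp correlated with r = 0.85 (rho = 0.78, permutation p = 0.00281, 0.01405 after Benjamini-Hochberg adjustment), Sox10 and Pmp22 with r = 0.81 (rho = 0.85, permutation p = 0.00982, adjusted 0.02455), and Sox10 and Prx with r = 0.76 (rho = 0.57, permutation p = 0.00597, adjusted 0.0199). Without DMD replicate 1 and p16-null DMD replicate 3, which lay farthest from the median of Sox10, r was 0.70, 0.78 and 0.49, so the coefficient with Prx fell most. Within the 6 p16-null DMD libraries r was 0.91 for Mbp, 0.84 for Pmp22 and 0.95 for Prx. Genes of perineurial and endoneurial fibroblasts, other cells of the nerve, summed to 201 CPM in DMD replicate 1 against 105 and 88.4 in replicates 2 and 3, and to 180 CPM in p16-null DMD replicate 3 against 73.4 to 136 in the other p16-null DMD libraries. Their part in the shared spread was not tested.

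Mag (r = 0.63), Ncmap (0.47) and Cnp (0.46) did not pass after adjustment in their relation to Sox10 (permutation p = 0.0302, 0.0943 and 0.0405, adjusted 0.0604, 0.13471 and 0.0675; rho = 0.71, 0.29 and 0.37; r without the 2 libraries 0.67, 0.13 and 0.36). Erbb3 had a negative coefficient with Sox10, r = -0.40 (rho = -0.38, permutation p = 0.241, adjusted 0.30125), and -0.82 within the 6 p16-null DMD libraries. Pmp22 thus both varied with Sox10 between libraries of a group and rose in dystrophic muscle.

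**Figure D3:**
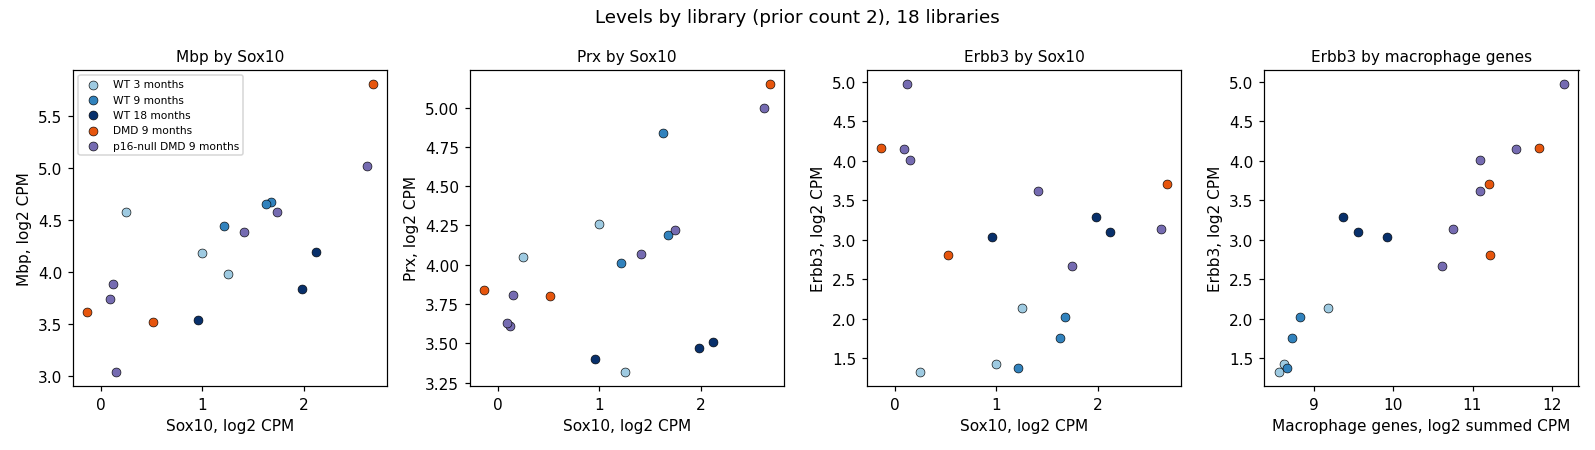
Log2 CPM of Mbp, Prx and Erbb3 against Sox10, and of Erbb3 against the summed macrophage genes, with 1 point per library coloured by group. Mbp and Prx are highest in the DMD and p16-null DMD libraries with the most Sox10, while Erbb3 is highest where macrophage genes are highest.

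Erbb3 moved with macrophage genes in most groups, but not in WT at 18 months. There the macrophage sums were 660, 967 and 754 CPM for replicates 1 to 3, beside Erbb3 at 9.60, 8.08 and 8.42 CPM. Among the DMD libraries, replicate 3 had both the most macrophage RNA (3660 CPM, against 2360 and 2390) and the most Erbb3. Among p16-null DMD libraries the macrophage sums were 4570, 2190, 1730, 2180, 2990 and 1570 CPM for replicates 1 to 6, beside Erbb3 at 31.2, 12.2, 8.62, 16, 17.6 and 6.24 CPM. The within-group correlation was r = 0.86 (rho = 0.75, permutation p = 0.00044, adjusted 0.0044), 0.75 without DMD replicate 3 and p16-null DMD replicate 1, and 0.96 within p16-null DMD. This relation was chosen after the levels had been seen. Which cells hold the Erbb3 transcripts was not tested. For Cnp and macrophage genes the values were r = -0.09 (rho = 0.03, permutation p = 0.769, adjusted 0.85444; -0.12 without DMD replicate 3 and p16-null DMD replicate 1), and for Pmp22 and fibroblast genes r = -0.01 (rho = 0.01, permutation p = 0.978, adjusted 0.978; -0.04 without WT 3-month replicates 1 and 3).

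The genes most like each member over the 18 libraries, by Pearson's r of log2 CPM among 12875 genes (12876 for Ncmap) and with group differences included, fell into different sets. Mbp had Kcna1, a potassium channel of the juxtaparanode (0.88), and Sfrp5 (0.81) among its nearest genes. Sox10 had Dhh (0.83) and Gjc3 (0.80) among its nearest, and Prx was closest to Kcna1 (0.83), Mbp (0.80) and the mast cell tryptase Tpsb2 (0.73). Ncmap was closest to Prx (0.76), Pou3f1 (0.71) and Cldn19 (0.68). Erbb3 was closest to Cd84 (0.97), Itgam (0.96) and the scavenger receptor Msr1 (0.96), genes of macrophages and other white blood cells. Cnp was closest to Erbb2 (0.97), Mical1 (0.96) and Plekhg4 (0.96), and Pmp22 to Gal3st4 (0.94), Rarres2 (0.93) and Vkorc1 (0.92). Mag was closest to Trdmt1, Pir and Shc4 (0.83, 0.78 and 0.78), which at its count level is weakly determined.

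A ratio within a library does not depend on how libraries are scaled, so Pmp22, Mbp, Cnp and Erbb3 were also set against Prx, chosen as a reference among the members. The log2 ratio of Pmp22 to Prx was 1.94, 1.91 and 1.39 in the WT libraries of 9 months and 2.27, 3.09 and 3.01 in DMD, without overlap, a difference in means of 1.04 (exact two-sided permutation p = 0.10, the smallest that 3 against 3 allows). The ratio of Erbb3 to Prx differed by 1.96 (exact p = 0.10) and that of Cnp by 1.13 (exact p = 0.30), with DMD replicate 1 inside the WT range for Cnp. Mbp to Prx differed by -0.20 (exact p = 0.80).

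In p16-null DMD the difference from WT was 1.01 for Pmp22, 1.36 for Cnp and 2.37 for Erbb3 relative to Prx, with no overlap of the groups in any of the 3 (each exact permutation p = 0.0238, 0.127 after adjustment over the 16 ratios tested), and -0.19 for Mbp (exact p = 0.619). With age the ratio of Cnp rose in all 3 libraries of 18 months above those of 3 months, by 1.36 on average, and that of Erbb3 by 1.96 (each exact p = 0.10). Pmp22 to Prx differed by -0.20 (exact p = 0.80) and Mbp to Prx by 0.03 (exact p = 0.90), with overlapping ages. Between p16-null DMD and DMD exact p lay between 0.571 and 0.952. None of the 16 ratios passed after adjustment. The smallest p that this test allows is 0.10 for 3 against 3 and 0.0238 for 6 against 3. Passing after adjustment over 16 ratios was therefore nearly out of reach, and its absence says little. The share of all genes whose ratio to Prx separates the groups without overlap was not counted. In CPM, 30.7% of all tested genes were higher without overlap in DMD, 23.8% in p16-null DMD and 17.7% with age.

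**Figure D4:**
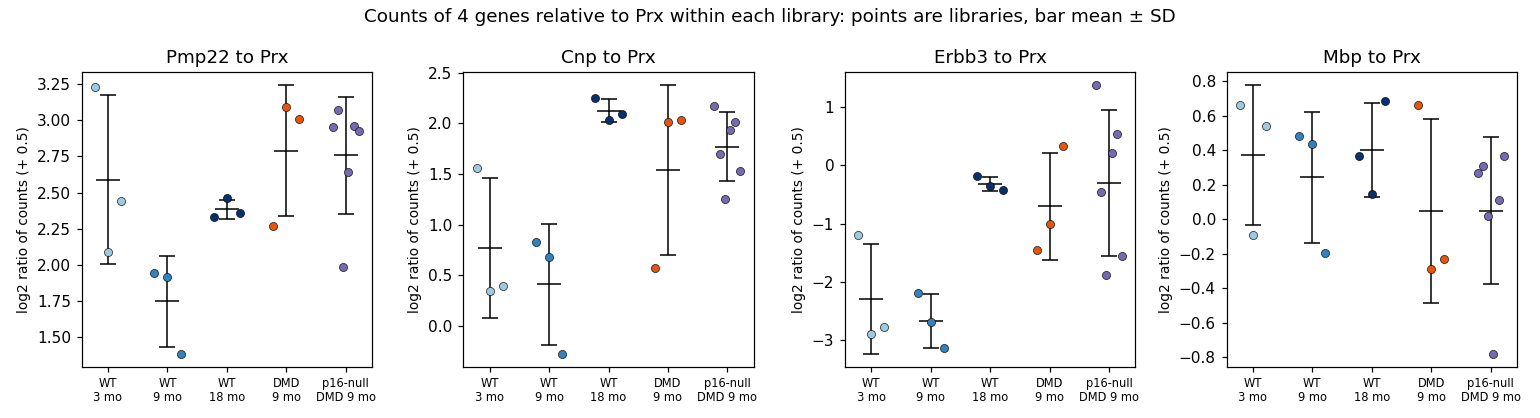
Within-library log2 ratio of the counts of Pmp22, Cnp, Erbb3 and Mbp to those of Prx, with 1 point per library in 5 groups and a bar at the group mean. Every p16-null DMD library lies above every 9-month WT library for Pmp22, Cnp and Erbb3, and the groups overlap for Mbp. The share of all genes that separate in this way was not counted.

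The wider gene lists of the pathway were chosen with earlier results known. Of 23 other myelin sheath and node genes tested in DMD against WT, 4 rose and 3 fell, with a median log2 fold change of 0.07, beside 26.4% and 21.8% of all tested genes. With library totals, where 7691 of all 14801 tested genes rose and 1240 fell, the list had 7 higher and 3 lower (median 0.72). In log2 TPM (pseudocount 1) 8058 of all genes rose and 1044 fell, and 7 genes of the list rose and none fell. The 3 with the smallest p were Mpdz, a scaffold protein (-1.06 ± 0.14, edgeR adjusted p = 3.5e-05), Cadm3, an adhesion molecule on axons (1.34 ± 0.20, edgeR adjusted p = 8.4e-05), and Plekhb1 (-1.43 ± 0.32, edgeR adjusted p = 0.002). In log2 TPM the falls of Mpdz and Plekhb1 were -0.27 and -0.73 and no longer passed (limma adjusted p = 0.16 and 0.063). In p16-null DMD the same list had 4 genes higher and 3 lower, beside 27.5% and 22.7% of all tested genes. Its median was -0.40 and turned to 0.21 with library totals and to 0.21 and 0.29 in log2 TPM with a pseudocount of 1 and 0.1. With age 1 of 21 rose and 3 fell, beside 9.31% and 10.1% of all tested genes.

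Of 16 other Schwann cell regulators and neuregulin signalling genes tested, 9 rose and 1 fell in DMD, with a median of 0.85, and 8 rose and 1 fell in p16-null DMD, beside 26.4% and 27.5% of all tested genes that rose. With library totals 12 of the 16 were higher in each, beside 7691 and 8071 of all 14801 tested genes. Erbb2, the kinase that pairs with Erbb3, ranged from 2.11 to 3.22 CPM in WT and from 12.5 to 22.7 CPM in DMD (2.65 ± 0.36, edgeR adjusted p = 3.4e-05), and was higher by 2.67 ± 0.33 in p16-null DMD (edgeR adjusted p = 1.5e-05) and by 1.93 ± 0.28 at 18 against 3 months (edgeR adjusted p = 0.00024). Both parts of the receptor thus rose in each of these comparisons. Their ligand gene Nrg1 was not tested, with 2 counts over the WT libraries of 9 months, 14 over DMD and 41 over the 6 of p16-null DMD.

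Egr2, the partner of Sox10 in the myelin programme, had 0.945 to 3.77 CPM in WT and 5.62 to 17.8 CPM in DMD (2.71 ± 0.53, edgeR adjusted p = 0.00072) and rose by 1.63 ± 0.48 in p16-null DMD (edgeR adjusted p = 0.011). Without WT replicate 1 or 2 the p16-null DMD value of Egr2 no longer passed (1.31 and 1.34, edgeR adjusted p = 0.066 and 0.058), nor with all 18 libraries in 1 fit (1.62, edgeR adjusted p = 0.058). Its co-repressor Nab2 rose by 1.64 ± 0.24 in DMD (edgeR adjusted p = 6.5e-05) and Id2, an inhibitor of basic helix-loop-helix factors, by 1.79 ± 0.22 (edgeR adjusted p = 1.7e-05). With age 3 of 15 regulators rose and 1 fell, beside 9.31% and 10.1% of all tested genes.

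Among genes of non-myelinating, terminal and repair Schwann cells, 4 of 15 rose in DMD and none fell, with a median of 1.02. That is near the 26.4% of all tested genes that rose. With library totals and in log2 TPM 8 of 15 were higher, beside 7691 and, with a pseudocount of 1, 8058 of all 14801 tested genes. Cdh2, a cadherin, rose by 2.18 ± 0.32 (edgeR adjusted p = 6e-05) and S100b, a calcium-binding protein of Schwann cells that some muscle cells also make, by 1.99 ± 0.56 (edgeR adjusted p = 0.0086). Gfap, a filament protein of non-myelinating Schwann cells, had 0 counts in WT at 9 months and 65 in DMD, at least 13.3-fold higher against a limit of 3 counts over the WT group. Ngfr, the neurotrophin receptor that marks immature and repair Schwann cells, did not pass in DMD (0.12 ± 0.48, edgeR adjusted p = 0.85) and rose with age, from a mean of 1.23 to 9.11 CPM (2.87 ± 0.36, edgeR adjusted p = 6.5e-05). Gap43, a growth protein, did not pass in DMD either (-0.24 ± 0.81, edgeR adjusted p = 0.83). In p16-null DMD 5 of 15 rose and none fell, beside 27.5% of all tested genes that rose. With age 2 of 11 rose and none fell, beside 9.31% of all tested genes that rose. S100b was at 1.43 ± 0.51 in p16-null DMD (edgeR adjusted p = 0.028) and missed the threshold without any 1 of the WT libraries (edgeR adjusted p = 0.078, 0.079 and 0.082), without p16-null DMD replicate 2 or 3 (0.053 each) and with a robust fit (0.063).

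Axon and nerve terminal genes rose in 6 of 7 cases in DMD and none fell, with a median of 3.24, and in 5 of 7 in p16-null DMD, beside 26.4% and 27.5% of all tested genes that rose. Of the 10 genes listed, 4 to 6 were at 0 in each WT library of 9 months, against 1 to 2 in each dystrophic library. A gene at 0 in WT can pass the low-count filter only through the dystrophic libraries. The counts and the median are thus partly set by the filter, and the share of all genes is no even measure for them. Stmn2, a microtubule regulator of growing axons, was at 3.87 ± 0.59 (edgeR adjusted p = 9.4e-05) and Uchl1, a neuronal ubiquitin hydrolase, at 3.24 ± 0.87 (edgeR adjusted p = 0.0064). Nefh, a neurofilament subunit, had 1 count in WT and 33 in DMD, a ratio of 20.3 (95% counting interval 3.39 to 824). Chat, the enzyme of motor neurons that makes acetylcholine, was at 0 in every DMD, p16-null DMD and WT library. The axon list also differed with age: 2 of 4 genes tested rose and none fell (median 1.15), beside 9.31% of all tested genes that rose. Its summed level, 8.99 to 9.94 CPM in the youngest WT libraries, reached 18.6 to 21.5 CPM in the oldest, without overlap. WT libraries of 9 months held 6.96 to 9.59 CPM. Sums were higher still in p16-null DMD libraries (24.9 to 36.7 CPM) and highest in DMD libraries (48.2 to 62 CPM). Of the perineurial and endoneurial fibroblast genes 1 of 6 rose in DMD, 1 of 6 in p16-null DMD and 2 of 6 with age, and none fell, beside 26.4%, 27.5% and 9.31% of all tested genes that rose. With library totals 3, 2 and 4 of the 6 were higher, beside 7691 and 8071 of 14801 tested genes and, with age, 2609 of 13487. DESeq2 and RLE scaling called 1 lower in DMD. No gene of any of these lists passed between p16-null DMD and DMD.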

How the data were processed

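The deposited tables hold, for 18 libraries, expected counts per gene (estimated by RSEM and therefore partly fractional) and TPM, both as the authors deposited them. Per the labels' protocols, total RNA came from frozen tibialis anterior sections (RNeasy mini kit) and libraries were made with a TruSeq RNA kit. STAR 2.7.10b, RSEM 1.3.3, FastQC, Trimmomatic and the build mRatBN7.2 are named in the submitters' processing notes. Strand setting and annotation release were not given in the sources used here, so reads of a gene and of an overlapping antisense gene cannot be told apart. Values that were not whole made up 4.5%, and counts were rounded. Groups were taken from the sample titles, genotypes and ages. Entries without a symbol (7162) took 3.64 to 17.6% of a library.

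Genes with low counts were removed with filterByExpr (minimum count 10), libraries were scaled by TMM, and quasi-likelihood tests were run in edgeR 4.0.16 under R 4.3.3, with Benjamini-Hochberg adjustment over all tested genes. A single fit of 14801 genes covered all libraries of 9 months (biological coefficient of variation 0.26), and WT of 3 and 18 months another of 13487 genes (0.176). Standard errors are the log2 fold change divided by the square root of F. Log2 CPM used a prior count of 2. Ratios within a library used exact permutation tests, and promoters came from RefSeq (GRCr8). The steps were tested on simulated data. Replicates differed by more than counting error (chi-square per degree of freedom 12.5 to 83.7), so none was counted as a repeat of another.

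The members and lists were chosen with earlier results of these data known. All 8 members are given in each comparison, with up to 3 genes of each Schwann cell, myelin and axon list with the smallest p in DMD against WT. Egr2, S100b, Ngfr, Gap43, Nrg1 and Erbb2 are named as well, and Dmd as a check, and some genes of this rule are not reported here. Cdkn2a lies outside this rule. Lists of perineurial, melanocyte, fibroblast, macrophage, lymphocyte and muscle fibre genes are given as counts or sums. Alternatives were DESeq2 1.42.0, RLE scaling, library totals, limma 3.58.1 on log2 TPM (pseudocount 1, or 0.1 instead), no filter, at least 1 CPM in 3 libraries, a robust fit, a replicate block, other choices of the groups fitted, and each library left out. Permutations, correlations and figures used Python 3.11.15 with numpy 2.4.6, scipy 1.17.1, pandas 2.3.3 and matplotlib 3.10.9.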

Additional observations from a re-analysis of the deposited data

Results flagged for a closer look

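Among the 6 p16-null DMD libraries replicate 3 stood apart for 2 members. Prx reached 31.9 CPM there, and its gap to the next library was 0.677 of the group's whole range. Cnp reached 76.1 CPM in the same library, with a gap of 0.81 of the range. Dixon's critical value for 6 libraries is 0.625, and 12 groups of 6 values were tested, of which chance flags about 1 in 20. Without p16-null DMD replicate 3 the log2 fold change of Cnp against WT was 0.97 and still passed, and that of Prx was -0.50.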

How the results depend on the processing

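The calls of Pmp22, Erbb3 and Cnp held against WT in both dystrophic groups under all 23 alternatives, with log2 fold changes of 0.76 to 1.76, 1.63 to 2.62 and 0.95 to 1.78 in DMD and 0.67 to 1.51, 1.91 to 2.84 and 0.97 to 1.82 in p16-null DMD. With age Erbb3 and Cnp held under all 16, and the fall of Pmp22 was lost in log2 TPM with either pseudocount (-0.30 each), which left 0 members lower. Over all alternatives 50 of the fold changes and 18 of the ratios examined changed sign. None of these fold changes was of a gene that had passed the test in the comparison concerned, and no ratio had passed at all. Where no value shows the cause, it was not tested.

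In DMD against WT the sign turned for Prx, Sox10 and Mag with DESeq2 (-0.017, -0.011 and -0.042), for Prx and Sox10 with RLE scaling (-0.021 and -0.023) and with only the 2 groups compared (-0.002 and -0.006). With library totals Gap43 stood at 0.361, and in log2 TPM with a pseudocount of 1 and of 0.1 at 0.37 and 0.76. In p16-null DMD against WT, Mbp, Prx and Sox10 were at 0.292, 0.371 and 0.486 with library totals, at 0.424, 0.357 and 0.208 with the pseudocount of 1, and at 0.445, 0.413 and 0.223 with 0.1.

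Replicate numbers did not pair the libraries: same-numbered libraries correlated at -0.198 to 0.055. With the replicate number as a block no call of a member changed. The block turned Mbp and Sox10 to -0.069 and -0.117 in DMD, Sox10 to 0.311 in p16-null DMD against WT, and Mbp and Sox10 to 0.061 and 0.428 against DMD, and left 0 genes called between p16-null DMD and DMD.

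With libraries left out in turn, log2 fold changes in DMD against WT ranged from -1.042 to 0.522 for Mbp, -0.584 to 0.314 for Prx, -1.405 to 0.475 for Sox10, -0.805 to 1.478 for Mag, -0.45 to 0.469 for Ngfr and -0.988 to 1.184 for Gap43. Leaving out DMD replicate 1 gave the lowest value of each of these. In p16-null DMD against WT they ranged from -0.504 to 0.053 for Prx, -0.668 to 0.023 for Sox10 and -1.169 to 0.772 for Mag. Between p16-null DMD and DMD they ranged from -0.859 to 0.704 for Mbp, -0.526 to 0.348 for Prx, -0.694 to 1.258 for Sox10, -0.044 to 0.61 for Erbb3, -0.069 to 0.078 for Cnp and -1.282 to 0.169 for Mag. Genes called there numbered 1 to 85, the most without DMD replicate 1, and DESeq2 called 15. With age 1696 to 2415 genes were called with a library left out, and 1742 with all 18 libraries in 1 fit. Members lower with age numbered 1 to 2, with Prx added without WT 3-month replicate 1.

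With Sox10 in place of Prx as the reference, the difference in the log2 ratio of Mbp was 0.269 in DMD, 0.052 in p16-null DMD, -0.217 between them and -1.291 with age. From TPM it was 0.032 in p16-null DMD. With libraries left out, differences between p16-null DMD and DMD ranged from -0.293 to 0.121 for Pmp22, -0.167 to 0.309 for Mbp and -0.255 to 0.476 for Cnp, and with age from -0.453 to 0.117 for Pmp22 and -0.204 to 0.173 for Mbp.

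Depth limits Mag and Ncmap, and the number of libraries, 3 in each group and 6 in p16-null DMD, limits every interval.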

Other observations

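Ncam1 and Nfasc were chosen after their values had been seen. Ncam1 encodes an adhesion molecule known on non-myelinating Schwann cells and on denervated or growing muscle fibres. It read 8.26 to 9.15 CPM in WT at 3 months, 15.7 to 56.4 at 9 months and 196 to 236 at 18 months, with no overlap between these groups. The log2 fold change from 3 to 18 months was 4.60 ± 0.15 (SE, edgeR adjusted p = 1.6e-10), and it lay between 4.29 and 4.84 under all 16 alternatives. In DMD it read 70.3 to 108 CPM (1.16 ± 0.35 against WT, edgeR adjusted p = 0.013; 0.95 and adjusted p = 0.053 without DMD replicate 2) and in p16-null DMD 67 to 129 CPM (1.43 ± 0.32, edgeR adjusted p = 0.0017). WT at 18 months thus stood above every dystrophic library, although ages and genotypes were not tested against each other.

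Nfasc encodes neurofascin, which holds together the node of Ranvier and its flanks. It read 4.35 to 8.86 CPM in WT at 3 months, 5.65 to 8.51 at 9 months and 1.72 to 2.08 at 18 months, while DMD libraries read 0.587 to 3.06 CPM and those of p16-null DMD 0.389 to 1.54 CPM. The log2 fold changes were -2.19 ± 0.62 in DMD, -2.83 ± 0.51 in p16-null DMD and -1.76 ± 0.37 with age (SE; edgeR adjusted p = 0.0092, 0.00032 and 0.0039). In log2 TPM with a pseudocount of 1 the values in DMD and with age were -0.41 and -0.40 and did not pass (limma adjusted p = 0.064 and 0.13). With a pseudocount of 0.1 they were -1.15 and -0.94 (limma adjusted p = 0.081 and 0.14).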
